A study of Mus musculus with 4 samples.

Results

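The complement, coagulation and fibrinolysis genes examined here are 31 genes, out of 39179 in the deposited table, chosen by name from these 3 protease systems of the blood and vessel wall. All 31 were found under their own symbols. RNA was sequenced from primary aortic smooth muscle cells of the mouse, 2 libraries from Sm-Yap/Taz-KO mice and 2 from wild-type mice, both groups taken 18 days after tamoxifen injection. In the knockout, the labels name the transcriptional co-activators YAP and TAZ (genes Yap1 and Wwtr1), the effectors of the Hippo pathway, as deleted, with "Sm" in the mouse line's name. The sources used here give neither the promoter that drives the recombinase, nor the alleles of the control mice, nor the age, sex and strain of the animals. The labels do not say whether the libraries of a group come from different animals, so p-values measure the spread between these samples only, which may be technical.

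Complement is a cascade of plasma proteins that tags and lyses targets. The C1 complex (C1q with the proteases C1r and C1s) or the mannan-binding lectin proteases start it, C4, C2, C3 and factor B form the enzymes that cleave C3, and C5b to C9 build the membrane attack complex. Coagulation is a chain of proteases that ends in thrombin and a fibrin clot, held in check on the vessel wall by thrombomodulin, protein C with its receptor, protein S and tissue factor pathway inhibitor, and plasmin made by the plasminogen activators dissolves the clot. The liver makes most of the circulating proteins, while macrophages make C1q and properdin, fibroblasts C3, C1r, C1s and C7, and endothelium thrombomodulin and the protein C receptor.

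The normalized read counts (authors' counts after scaling between libraries, rounded to whole numbers) summed to between 13279332 and 14519178 per library, and the steps between low values put the reads on genes at about 11800000 to 12300000 for knockout and 15600000 to 16800000 for wild-type libraries. Yap1 had normalized counts of 947 and 962 in knockout replicates 1 and 2 and 1966 and 1877 in wild-type replicates 1 and 2 (limma adjusted p = 0.00802), and Wwtr1 had 2848 and 2466 against 3423 and 4016 (limma adjusted p = 0.0553), so both genes were lower in the libraries labelled knockout, the second without passing the test. The smooth muscle markers Acta2 and Myh11 were present in all 4 libraries, Acta2 at 41201 and 33544 in the knockout against 157904 and 150117 in wild type. Markers of other cells were present too and moved with the group. Of 14 macrophage markers, 12 were higher and 1 lower (Mertk) in the knockout by the limma test used throughout (adjusted p under 0.05), with summed counts of 16493 and 21909 in the knockout against 5259 and 7122 in wild type, and none was at 0 in all libraries. Mertk made most of the sum in wild-type replicate 1 (3889) and less than the other 13 together in replicate 2 (3274). Those 13, separated after these values were seen, summed to 14699 and 20302 against 1370 and 3848. Of 10 endothelial markers 5 were higher (sums of 8966 and 8788 against 4059 and 5352), of 10 fibroblast markers 3 (75374 and 64037 against 20549 and 40888) and of 9 adipocyte markers 6, with 1 lower (11714 and 11111 against 8983 and 8471). The lower adipocyte marker was Plin4. The other 8, separated after these values were seen, summed to 7278 and 7489 against 1079 and 2761. Of 9 smooth muscle markers 7 were lower (182914 and 139737 against 451687 and 427808). Of 8 hepatocyte markers, Ttr, Serpina1a and Hnf4a were at 0 in all 4 libraries and 7 summed to 12 and 18 against 3 and 1; the exception was Cyp2e1, at 1828 and 2281 against 211 and 561. Lymphocyte markers summed to 46 and 54 against 11 and 14, platelet markers to 160 and 240 against 111 and 173 and mesothelial markers to 1 and 21 against 1 and 8. What part these cells have in the results below was not tested, and in such bulk samples fewer cells of a type and less RNA per cell cannot be told apart.

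Most of the genes were higher in the knockout. Of the 31, 29 had a mean normalized count of at least 10 over the 4 libraries and were tested, 17 of these rose, none fell and 12 did not pass the threshold, with a median log2 fold change of 1.60 (on the log2(count + 1) scale, as are all fold changes in log2 below). Over all 15058 genes tested, 9.58% passed as higher and 6.70% as lower in knockout libraries. The median log2 fold change over all of them was -0.02. The members were chosen with earlier results of these data known, so setting them beside all genes is description and not a test. At an unadjusted p under 0.05, limma gave 23 of the 29 as higher and 0 as lower, beside 4898 of all 15058 genes in either direction. Both knockout libraries lay above both wild-type libraries for 28 of the 31 genes, F7 and Cfi, too low to test, among them. Of all genes tested, 30.7% did so. Both lay below for none of the 31, against 32.1%. C7, Cd59a and F2r were the 3 with overlapping groups. C6, C5ar1, F10 and Tfpi2 reached the minimum mean through the knockout libraries, having a wild-type mean under 10. F7 and Cfi stayed below it. Below, a pair of counts for knockout replicates 1 and 2 is set against the pair for wild-type replicates 1 and 2. The calls rest on few libraries. In each refit with 1 library less, which leaves 1 library in a group, some or all of the 17 calls were lost. The members' median log2 fold change ran from 1.29 to 2.03 in these refits. The number of members called was 0 without the filter on low counts and 0 without the intensity trend of the variance model.

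**Figure D1:**
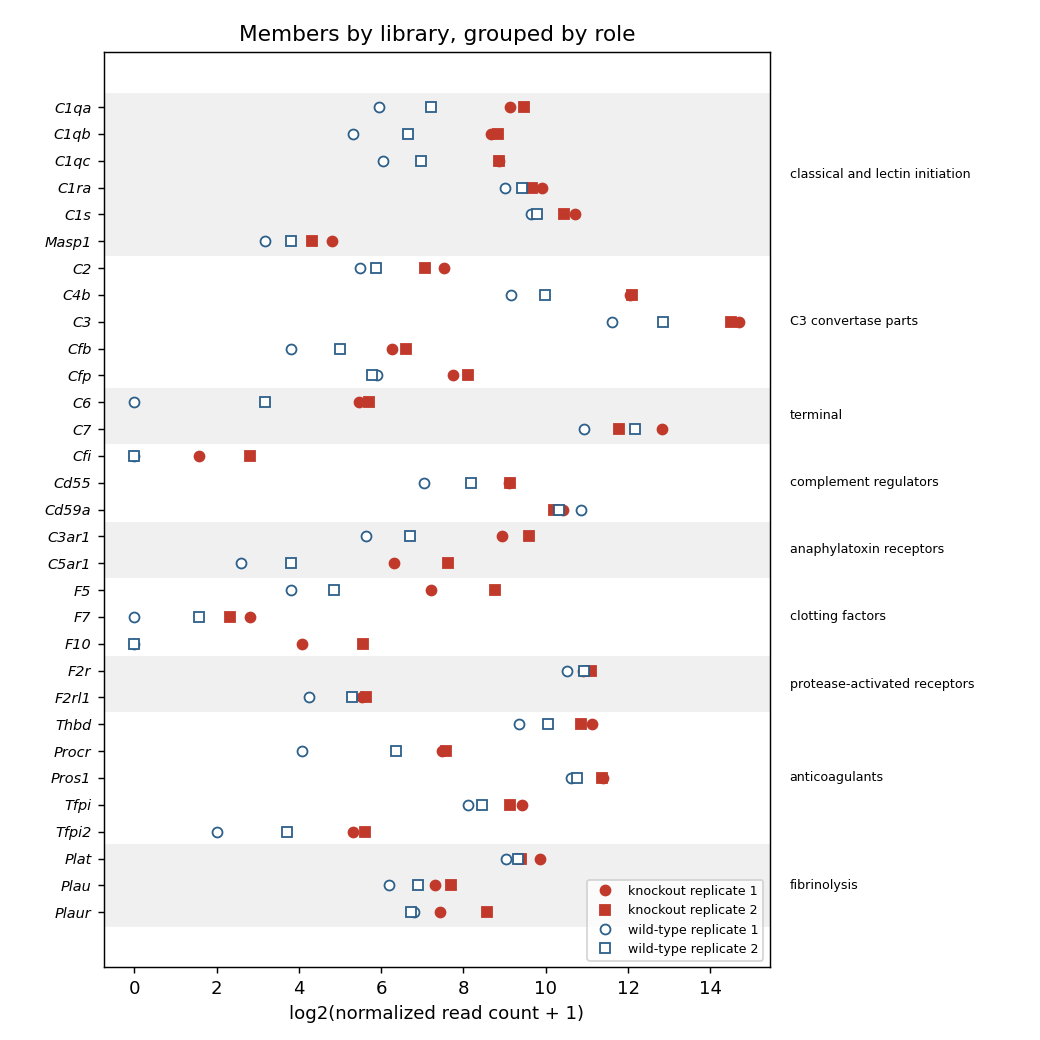
Normalized read count of each of the 31 genes in each library, as log2(count + 1) on the horizontal axis, with genes in rows grouped by role. Filled symbols are knockout and open symbols wild-type libraries, circles replicate 1 and squares replicate 2. The filled symbols lie to the right of the open ones in 28 rows, and the groups overlap for C7, Cd59a and F2r.

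**Figure D2:**
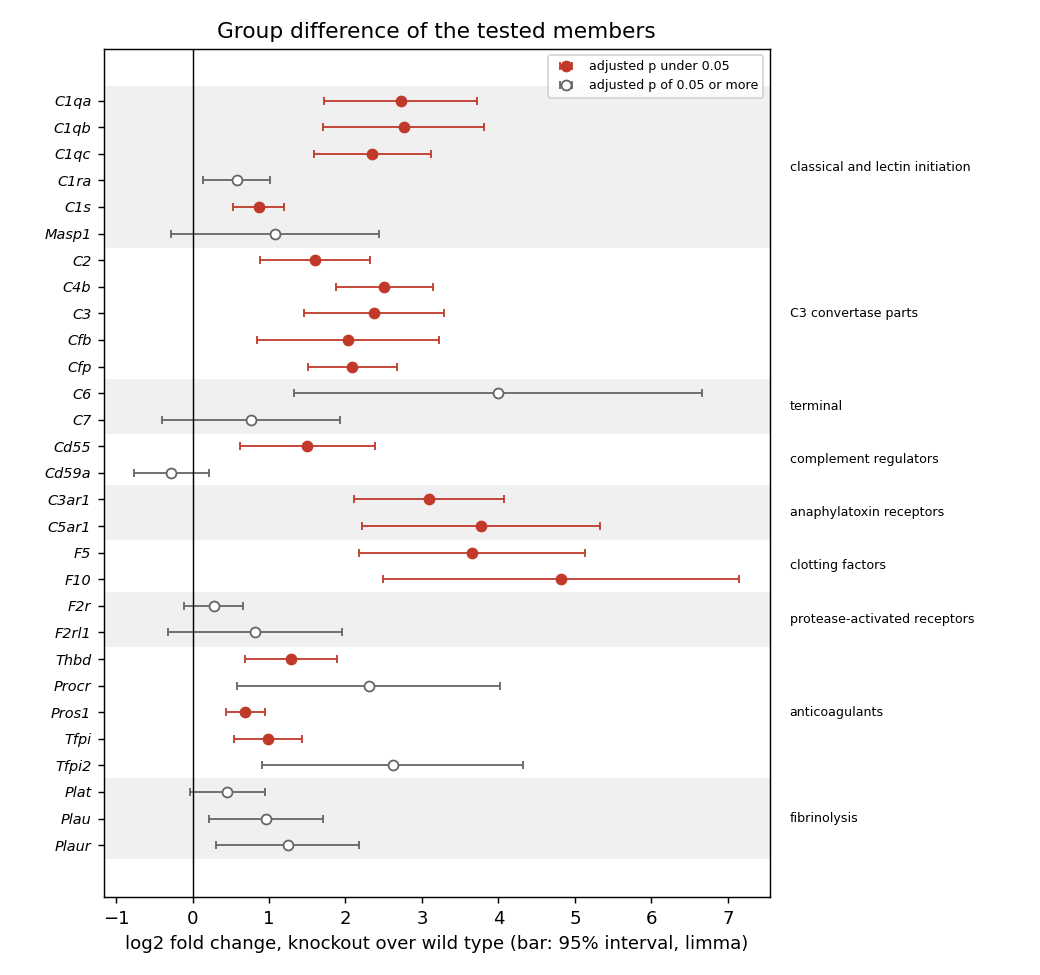
Log2 fold change of knockout over wild type for the 29 tested genes (horizontal axis), with limma's 95% interval as the bar, n = 2 libraries per group. The 17 filled points had an adjusted p under 0.05. The fold changes run from -0.28 for Cd59a to 4.82 for F10, which was at 0 in both wild-type libraries.

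C1q, the recognition part of the first complement complex, showed rises in all its chains. C1qa was at 560 and 715 normalized counts in the knockout against 61 and 148 in wild type, 6.10-fold higher on average (limma log2 fold change 2.72 with an SE of 0.41, adjusted p = 0.0141). C1qb had 408 and 454 against 39 and 100 (2.76, SE 0.43, adjusted p = 0.0148) and C1qc 462 and 464 against 65 and 124 (2.35, SE 0.31, adjusted p = 0.0110). In all 3 genes both knockout values were above both wild-type values. The wild-type libraries were the farther apart, replicate 2 holding 1.91 to 2.56 times the count of replicate 1. The 3 genes stand in a row on chromosome 4 of GRCm38 (C1qb 136880129 to 136886187, C1qc 136889804 to 136893065, C1qa 136895917 to 136898803), all on the minus strand and with gaps of 3.62 and 2.85 kb. Per kilobase of exon, the level in the knockout was 613 normalized counts for C1qa, 396 for C1qb and 240 for C1qc, and in the wild type 100.5, 63.9 and 48.9, so the order was the same in both groups. The summed C1q count was 1430 and 1633 in the knockout against 165 and 372 in wild type, a ratio of 5.70, beside a ratio of 3.10 for the sum of the 14 macrophage markers and 6.71 for that of the 13 without Mertk.

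Of the proteases that start the classical and lectin pathways, 1 of 3 passed. C1s, which cleaves C4 and C2, had 1685 and 1392 in the knockout against 801 and 880 in wild type (limma log2 fold change 0.87 with an SE of 0.14, adjusted p = 0.0150), and rose 1.83-fold. C1ra, the protease that activates C1s, had 966 and 817 against 514 and 687 and did not pass (0.58, 95% interval 0.14 to 1.02, limma adjusted p = 0.0788). Both its knockout values were above both wild-type values, as in 30.7% of all genes tested. C1ra and C1s lie next to each other on chromosome 6, in opposite directions and 6.90 kb apart. Masp1, a protease of the lectin pathway, was low at 27 and 19 against 8 and 13 and did not pass (1.08, 95% interval -0.29 to 2.44). Close copies of both C1 proteases had few reads in 3 libraries and more in wild-type replicate 2, C1rb with 0 and 0 in the knockout against 0 and 41 in wild type and C1s2 with 5 and 0 against 3 and 68. The sources used here do not say how reads shared by such copies were counted. C1s also shares 18.4% of its exon length with an antisense gene, Gm16567, whose reads cannot be told apart without the strand setting.

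The bases just upstream of the start are shown for C1qb, as the gene with the largest fold change among the C1q chains, and for C1s, because it holds the core letters recognised by TEAD factors, the DNA-binding partners of YAP and TAZ. The sequences are RefSeq's, build GRCm38.p6, 250 bases ending at the base before the start, read 5′ to 3′ along the gene's strand. Capitals mark GAGGAA, the core of sites for the myeloid factor PU.1, in C1qb, and CATTCC, which is the TEAD core GGAATG on the opposite strand, in C1s.
C1qb (chr4:136886201-136886450, minus strand): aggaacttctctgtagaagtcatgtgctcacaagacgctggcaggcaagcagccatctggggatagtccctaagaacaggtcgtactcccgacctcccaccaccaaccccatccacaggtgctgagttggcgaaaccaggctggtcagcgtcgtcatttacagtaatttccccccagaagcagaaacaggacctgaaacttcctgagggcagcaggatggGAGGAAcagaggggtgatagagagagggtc
C1s (chr6:124542360-124542609, minus strand): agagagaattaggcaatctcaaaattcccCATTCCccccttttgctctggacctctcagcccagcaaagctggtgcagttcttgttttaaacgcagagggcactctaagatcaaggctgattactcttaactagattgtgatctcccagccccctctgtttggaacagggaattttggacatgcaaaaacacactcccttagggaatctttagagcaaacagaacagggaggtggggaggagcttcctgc

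Promoters were found for 21 of the 31 genes, 25 start sites in all, and not for C1qa, C2, C4b, Cfb, Cfi, F2rl1, Masp1, Plat, Plau and Thbd. GGAATG was in 12% of the 25 windows (C1ra, 1 of 2 starts of C1s, and F5), beside 12.6% of all 32851 windows of the same length, and GAGGAA in 28%, beside 23.3%. The AP-1 letters TGANTCA were in 20% of the 25 (C3ar1, F2r, Plaur, Procr and Tfpi2), beside 6.75% of all windows. Both strands were searched. The interferon-response site was in 1 window (4%, beside 2.98%), the STAT site TTCNNNGAA in 2 (8%, beside 7.02%), the NF-κB site in 1 (4%, beside 3.9%) and the CArG box in 0 (beside 1.47%). These are matches of letters and say nothing of binding.

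All 5 genes of the C3-cleaving enzymes rose. C3, the central protein of the cascade (chromosome 17, positions 57203970 to 57228136, minus strand), showed 26713 and 23171 normalized counts in the knockout against 3146 and 7351 in wild type, 4.75-fold higher on average (limma log2 fold change 2.37 with an SE of 0.37, adjusted p = 0.0151). C4b, which encodes C4, had 4215 and 4411 against 569 and 1005, 5.48-fold higher on average (2.51, SE 0.26, adjusted p = 0.00802). Both knockout values were above both wild-type values, and in both genes wild-type replicate 2 was above replicate 1. C2, the protease that joins C4b in the classical enzyme, had 183 and 132 against 44 and 58 (1.60, SE 0.29). Factor B (Cfb), its counterpart in the alternative pathway, had 76 and 97 against 13 and 31 (2.04, SE 0.49, adjusted p = 0.0409). Properdin (Cfp), which stabilises the alternative enzyme, had 214 and 277 against 59 and 54 (2.09, SE 0.24, adjusted p = 0.00898). Cfp was among the 3 genes of the 31 in which wild-type replicate 1 exceeded replicate 2. Cfb and C2 lie 0.086 kb apart on chromosome 17 and share 79.5% and 42.8% of their exon length with Gm20547, a gene annotated across both on the same strand. Gm20547 was listed at 0 in all 4 libraries, and reads that fall on it and on Cfb or C2 may have been left out of all of them, so the levels of these genes are uncertain. C4a, a close copy of C4b, had 5 and 9 against 9 and 4.

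Per kilobase, C3 was the highest of the 31 in the knockout, at 4850 normalized counts, and C7 was next at 2018. In the wild type C7 had rank 1 at 1217 and C3 rank 2 at 1021, with the values of the libraries (C7 727 and 1707, C3 612 and 1429) overlapping. By group means Cd59a had rank 3 in the wild type (864) and rank 4 in the knockout (703), but it ranked 1 in wild-type replicate 1 (1026) and 3 in replicate 2 (702), and 3 and 7 in knockout replicates 1 and 2. C4b moved from rank 9 (138 per kilobase) to rank 3 (757), and C3ar1 from rank 20 (17.6) to rank 13 (147).

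The terminal components gave no call. C6 had 43 and 51 normalized counts in the knockout against 0 and 8 in wild type (limma log2 fold change 3.995 with an SE of 1.090, adjusted p = 0.0582). C7, which inserts the attack complex into the membrane, had 7271 and 3527 against 1946 and 4567 (0.76, 95% interval -0.40 to 1.93, adjusted p = 0.324). The 2 knockout libraries of C7 differed 2.06-fold and the 2 wild-type libraries 2.35-fold, more than the 1.66-fold difference between the group means. Knockout replicate 1 and wild-type replicate 2 were high in it, and the groups overlapped.

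Of the membrane-bound and plasma regulators, 1 of 3 rose. Cd55, the decay-accelerating factor that takes the C3-cleaving enzymes apart, had 548 and 564 in the knockout against 131 and 292 in wild type (limma log2 fold change 1.502 with an SE of 0.36, adjusted p = 0.0420). Cd59a, which blocks the attack complex, had 1373 and 1172 against 1858 and 1271 and was the 1 tested gene of the 29 with a negative fold change (-0.28, 95% interval -0.76 to 0.21, adjusted p = 0.390). Its lower wild-type value lay between its knockout values. Cfi, the protease that inactivates C3b and C4b, was at 2 and 6 in the knockout and at 0 in both wild-type libraries, below the level tested.

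Both members that are receptors for the small cleavage products of the cascade rose. They had the 2 largest fold changes among the 12 complement members that passed. C3ar1, the receptor for C3a, had 486 and 776 normalized counts in the knockout against 49 and 103 in wild type, 8.30-fold higher on average (limma log2 fold change 3.09 with an SE of 0.40, adjusted p = 0.0106). C5ar1, a receptor for C5a, had 78 and 197 against 5 and 13, 15.3-fold higher on average (3.77, SE 0.64, adjusted p = 0.0177). Every knockout value was above every wild-type value, and knockout replicate 2 was 1.60 and 2.53 times replicate 1. C5ar1 had a wild-type mean under 10 and reached the minimum mean through the knockout libraries. C5ar2, a complement receptor of the remaining pathway list, had 23 and 90 against 24 and 27. Its groups overlapped and it did not pass (limma adjusted p = 0.446). C3ar1 and C5ar1 are known from myeloid cells. In the same libraries 12 of 14 macrophage markers were higher and 1 lower. Their sum was 3.10 times that of the wild type, and 6.71 times for the 13 without Mertk. Neutrophil markers were low and highest in knockout replicate 2. The 8 markers summed to 113 and 627 in the knockout against 6 and 9 in wild type. Of these, 4 were tested and 3 were higher (S100a9, Csf3r and Cxcr2). All 4 had a wild-type mean under 10 and reached the minimum mean through the knockout libraries. Mpo, Elane and Ly6g were at 0 in all 4 libraries. The part of neutrophils in the rise of C5ar1 was not tested.

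Of the clotting factors, F5 and F10 rose and F7 was too low to test. F5, the cofactor that speeds thrombin formation, had 147 and 434 normalized counts in the knockout against 13 and 28 in wild type, 14.2-fold higher on average (limma log2 fold change 3.65 with an SE of 0.60, adjusted p = 0.0169). F10, the protease that makes thrombin, had 16 and 46 in the knockout and was at 0 in both wild-type libraries (4.82, SE 0.95, limma adjusted p = 0.0252). It reached the minimum mean through the knockout libraries. The log2 fold change of F10 depended on the pseudocount, at 5.79 with 0.5 and 2.71 with 5. With 3 counts for the wild-type group as the floor that a count of 0 allows (counting error only), F10 was at least 20.7-fold higher. In both genes knockout replicate 2 was nearly 3 times replicate 1. F7, the protease that tissue factor activates, had 6 and 4 against 0 and 2. It lies 1.499 kb upstream of F10 on chromosome 8. With a minimum mean of 50, F10 was not tested.

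F5 held the TEAD core in the 250 bases before its start, shown for that reason with the match in capitals (RefSeq, GRCm38.p6, plus strand), as in 12.6% of all windows.
F5 (chr1:164151585-164151834): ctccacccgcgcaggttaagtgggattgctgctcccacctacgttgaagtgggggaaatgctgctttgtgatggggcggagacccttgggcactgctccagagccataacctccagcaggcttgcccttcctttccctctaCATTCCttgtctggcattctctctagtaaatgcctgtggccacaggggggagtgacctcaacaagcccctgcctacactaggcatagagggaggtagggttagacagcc

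The receptors that thrombin and other proteases cleave did not pass the test. F2r, the main thrombin receptor, had 1918 and 2183 in the knockout against 1476 and 1938 in wild type (log2 fold change 0.27, 95% interval -0.11 to 0.66, limma adjusted p = 0.288). F2rl1, which trypsin-like proteases activate, had 45 and 49 against 18 and 38 (0.82, 95% interval -0.32 to 1.95, adjusted p = 0.282). The 2 genes are neighbours on chromosome 13, 76.6 kb apart. Their levels differed widely, with 615 normalized counts per kilobase for F2r and 17.1 for F2rl1 in knockout libraries, beside 512 and 10.2 in wild type.

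Of 5 anticoagulant genes, 3 rose. Thrombomodulin (Thbd), which turns thrombin towards activating protein C, had 2246 and 1839 normalized counts in the knockout against 647 and 1067 in wild type, 2.38-fold higher on average (limma log2 fold change 1.29 with an SE of 0.25, adjusted p = 0.0233). Protein S (Pros1), the cofactor of protein C, had 2669 and 2648 against 1571 and 1724, 1.61-fold higher on average (0.69, SE 0.10, adjusted p = 0.0137). Tissue factor pathway inhibitor (Tfpi) had 683 and 556 against 276 and 348, 1.99-fold higher on average (0.99, SE 0.18, adjusted p = 0.0211). None of the 3 had overlapping groups, and Pros1 differed least between the libraries of a group, with a ratio of replicate 2 to replicate 1 of 0.992 for the knockout and 1.10 for the wild type. The protein C receptor (Procr) had 176 and 191 against 16 and 81 (2.30, SE 0.70, adjusted p = 0.0768), its wild-type libraries 5.06-fold apart. Tfpi2, a related inhibitor of plasmin and other proteases, had 39 and 48 against 3 and 12 (2.62, SE 0.70, adjusted p = 0.0547). Neither passed, and neither had overlapping groups. In all 5 genes both knockout values were above both wild-type values, as in 30.7% of all genes tested. In the same libraries 5 of 10 endothelial markers were higher and 5 were not called, with a sum 1.89 times that of the wild type.

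None of the 3 fibrinolysis genes passed the limma threshold. An unadjusted limma p under 0.05 was found for 2, beside 4898 of all 15058 genes tested in either direction. All 3 had both knockout values above both wild-type values, as did 30.7% of all genes tested. Urokinase (Plau) had 158 and 206 normalized counts in the knockout against 72 and 118 in wild type (log2 fold change 0.96, 95% interval 0.21 to 1.71, limma adjusted p = 0.0860). Its receptor Plaur had 171 and 382 against 111 and 104 (1.24, 95% interval 0.31 to 2.17, adjusted p = 0.0780), and knockout replicate 2 made most of that difference. Tissue plasminogen activator (Plat) had 935 and 671 against 520 and 643 (0.45, 95% interval -0.03 to 0.94, adjusted p = 0.179).

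The members differed between the wild-type libraries as well as between the groups. Wild-type replicate 2 exceeded replicate 1 in 26 of the 31 genes (83.9%), against 52.5% of all genes tested. The 31 include F7 and Cfi, which were too low to test. In 17 genes it did so by at least 1.5 times with a count of at least 10. The median log2 ratio of replicate 2 to replicate 1 was 0.82 over the 29 tested members and 0.02 over all genes tested. In the knockout the same medians were 0.12 and -0.01. The marker sums also differed between the wild-type libraries, not all in the same direction. Replicate 2 of the wild type held 1.99 times the fibroblast sum of replicate 1 and 1.32 times the endothelial sum. It held 1.35 times the macrophage sum (2.81 times without Mertk, separated after its values were seen) and 0.947 times the smooth muscle sum. The adipocyte ratio was 0.943, and 2.56 without Plin4, which was separated after its values were seen. Without wild-type replicate 1 the median log2 fold change of the members was 1.29, and without wild-type replicate 2 it was 2.03. What part the cell mix has in this was not tested. In the knockout, F5, F10, C5ar1, C3ar1 and Plaur were at least 1.5 times higher in replicate 2, and C7 in replicate 1, with a count of at least 10 in the higher library.

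**Figure D3:**
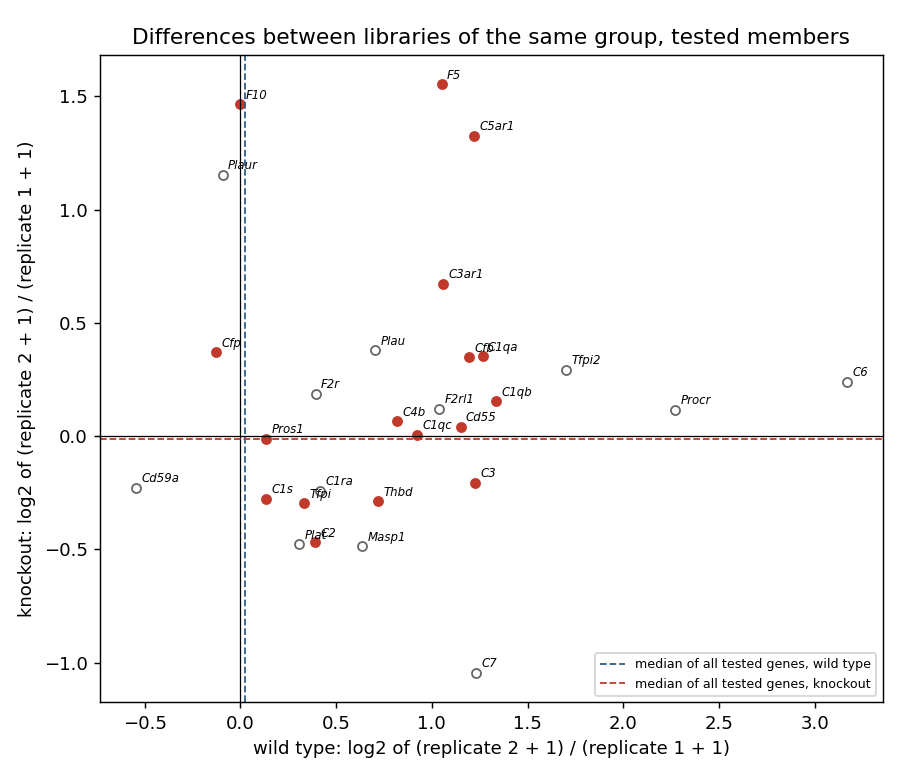
Difference between the 2 libraries of each group for the 29 tested genes, as the log2 ratio of replicate 2 to replicate 1 (each count + 1), wild type on the horizontal and knockout on the vertical axis. Filled points were called higher in the knockout, and dashed lines are the medians of all tested genes (0.02 and -0.01). Most points lie right of the vertical line, with C6 and Procr farthest, and F5, F10 and C5ar1 highest.

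**Figure D4:**
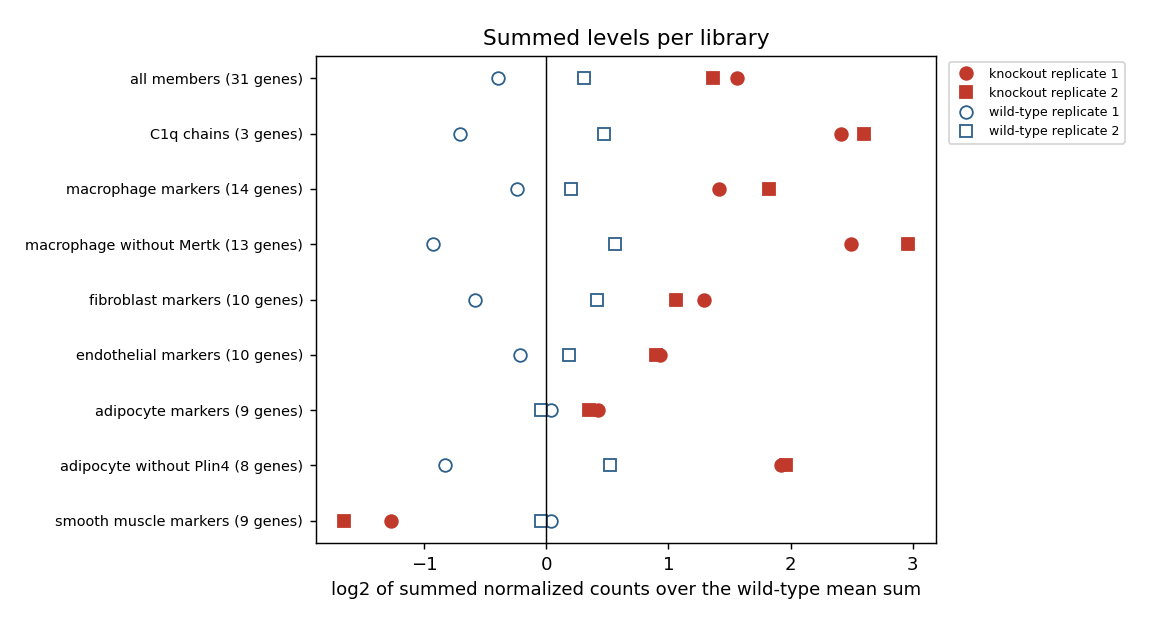
Log2 of the summed normalized counts of each gene list in each library over the mean of the wild-type sums, for all 31 members, the C1q chains and markers of cell types. Filled symbols are knockout, open symbols wild type, circles replicate 1, squares replicate 2. Of the lists plotted, all but smooth muscle lie higher in both knockout libraries than in both wild-type libraries, and the wild-type libraries are separated for the macrophage markers without Mertk (-0.93 and 0.56) and the C1q chains (-0.70 and 0.47) but near 0 for smooth muscle (0.04 and -0.04).

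The remaining genes of the same systems, 71 rows for other components, receptors and inhibitors, were tested in the same fit. Of 44 with a mean of at least 10, 16 rose (36.4%), 1 fell and 27 did not pass, with a median log2 fold change of 0.69. Over all 15058 genes tested, 9.58% passed as higher and 6.70% as lower, with a median of -0.02. This list too was chosen with earlier results of these data known. Of the 71 rows, 27 were too low to test and 11 of those were at 0 in all 4 libraries. Several genes of proteins that the liver supplies to blood were at or near 0. The prothrombin gene F2 had 2 and 0 in the knockout against 0 and 0 in wild type, and plasminogen (Plg) 0 and 0 against 0 and 1. F9, F12, Proc, Fgg, C8b and C9 were at 0 in all libraries. Others of the list were above that in some or all libraries. Kng2 had 24 and 100 against 2 and 6 and passed as higher. Kng1, with 5 and 51 against 0 and 1, and Serpind1, with 37 and 38 against 36 and 29, did not pass. All of these genes were named after their values were seen.

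Among the other complement genes 7 of 23 tested rose, beside 9.58% of all genes tested. Of the rest, 1 fell, beside 6.70% of all genes tested, and 15 did not pass. The receptor integrins that bind cleaved C3 had the largest fold changes of the 7 that rose. Itgam had 1017 and 1917 against 52 and 174 (limma log2 fold change 3.86 with an SE of 0.58, adjusted p = 0.0140), Itgb2, its β chain, 391 and 705 against 29 and 69 (3.52) and Itgax 42 and 108 against 1 and 5 (4.30, SE 0.79). Itgax and, among the 7, also Vsig4 had a wild-type mean under 10 and reached the minimum mean through the knockout libraries. Itgam, Itgb2 and Itgax are leukocyte integrins. Of the 14 macrophage markers 12 were higher and 1 lower (Mertk). Their sum was 3.10 times that of the wild type, and 6.71 times without Mertk, which was separated after its values were seen. What part macrophages have in the rise of these integrins was not tested. Factor D (Cfd), the protease that cleaves factor B and that adipocytes make, had 4757 and 4011 against 491 and 1545 (2.33, SE 0.49, adjusted p = 0.0303). Of the 9 adipocyte markers 6 were higher and 1 lower (Plin4), with a sum 1.31 times that of the wild type. The other 8, separated after these values were seen, had a sum 3.85 times that of the wild type. The C1 inhibitor gene Serping1 had 4485 and 3718 against 1623 and 2516 (1.015, SE 0.22, adjusted p = 0.0320). Clusterin (Clu), which binds the attack complex, had 2199 and 3775 against 4291 and 3611 (-0.45, 95% interval -1.07 to 0.17). Colec12, a scavenger receptor of the collectin family, was the 1 gene of this list that fell, at 3303 and 2966 against 4610 and 4948 (-0.61, SE 0.11, adjusted p = 0.0194).

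In the coagulation list 4 of 14 tested genes rose, beside 9.58% of all genes tested. Among them, Kng2 had a wild-type mean under 10 and reached the minimum mean through the knockout libraries. Tissue factor (F3), which starts clotting with factor VII, had 2589 and 2457 in the knockout against 682 and 1601 in wild type and did not pass (limma log2 fold change 1.27 with an SE of 0.37, adjusted p = 0.0687). F13a1, the fibrin cross-linking subunit that macrophages also express, had 5445 and 4520 against 624 and 1490 (2.36, SE 0.38, adjusted p = 0.0161). Mcfd2, part of the receptor that carries factors V and VIII out of the endoplasmic reticulum, had 1670 and 1802 against 1053 and 1189 (0.63, SE 0.12, adjusted p = 0.0211). Von Willebrand factor (Vwf), an endothelial protein, had 4155 and 2642 against 904 and 2019 (1.29, SE 0.40, adjusted p = 0.0783).

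In the fibrinolysis list 5 of 7 tested genes rose, beside 9.58% of all genes tested. Among them, Serpinb2 had 10 and 83 in the knockout against 0 and 0 in wild type. It reached the minimum mean of 10 through the knockout libraries. Anxa2 and S100a10, which form a plasminogen receptor on the cell surface, had 2787 and 3007 normalized counts against 1350 and 1586 (limma log2 fold change 0.98 with an SE of 0.12, adjusted p = 0.00988) and 5031 and 3634 against 1242 and 2073 (1.41, SE 0.27, adjusted p = 0.0234). Serpine2, an inhibitor of thrombin and urokinase, had 16275 and 13811 against 11514 and 11999 and did not pass (0.35, 95% interval 0.05 to 0.65, adjusted p = 0.109).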

How the data were processed

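RNA from 4 libraries (2 knockout, 2 wild-type) went through ribosomal RNA depletion and a stranded library kit, per the labels' protocols. Per the submitters' processing notes, the authors used DESeq2 1.14.1, STAR 2.5.2b, Subread's featureCounts 1.5.1 and FastQC, with the build mm10/GRCm38 (no roles stated). The sources used here name no annotation, strand setting or filter. The deposited values are a score, read counts normalized by the authors and rounded to whole numbers, so no count model was used. Here log2(value + 1) was tested in R 4.3.3 with limma 3.58.1 for genes with a mean of at least 10, group as the single term, eBayes with intensity trend, two-sided, Benjamini-Hochberg adjusted over 15058 genes, threshold 0.05. The script was tested on simulated data. Positions and exon lengths come from GENCODE M21 (GRCm38). Size factors were estimated from skipped and doubled whole numbers. Members, lists and motifs were chosen with earlier results of these data known. Named beyond the members are Yap1, Wwtr1, up to 8 rising and 8 falling genes of the remaining pathway list with the smallest p, and further components set by name (C1s1 is C1s here), of which some are not reported here. Any other gene named was chosen after its values were seen. C5 of that list was not matched.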

Additional observations from a re-analysis of the deposited data

How the results depend on the processing

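Over 13 alternatives, none of the 29 tested members, the other pathway genes named with a fold change, Yap1 and Wwtr1 changed the sign of its fold change in any alternative in which it was tested; single marker genes were not followed. The number of members higher in the knockout was 17 and was 16 to 20 with TMM rescaling, quantile normalization, equal totals, a pseudocount of 0.5 or 5, or a minimum mean of 50. Without the filter on low counts (lowest adjusted p 0.0710), and likewise with no intensity trend (0.0643), limma called 0 members higher, 0 other pathway genes higher and 0 lower, and 0 of all genes higher and 0 lower; 5472 and 4274 genes had an unadjusted p under 0.05. Leaving out 1 library gave 0 to 11 members higher (9 of the 11 also called with all libraries, C6 and Procr added), 0 to 9 other pathway genes higher and 0 lower, 0 to 718 of all genes higher and 0 to 197 lower; the count above 0 came without wild-type replicate 2 in each case. The members' median log2 fold change ran from 1.29 to 2.03 in these refits. With the replicate number as a block, limma called 22 members, the 17 and C6, Plau, Plaur, Procr and Tfpi2, while all genes called went from 1443 to 1823 higher and from 1009 to 1213 lower; same-numbered libraries had a correlation of deviations of 0.118 over genes, and 2 pairs do not show that the numbers pair the samples. The knockout libraries were the shallower, and low counts, as for Masp1, C6 and F10, limit precision.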
